A study of Mus musculus with 8 samples.

Results

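Interferon regulatory factors are a family of transcription factors that carry messages from nucleic acid sensors, Toll-like receptors and interferon receptors to the promoters of antiviral and inflammatory genes. The 8 family genes Irf1, Irf2, Irf3, Irf4, Irf5, Irf7, Irf8 and Irf9 were taken by gene name from the probes that are not controls. They are 8 of the 34844 gene names on the array and have 9 of its 55681 probes, 2 for Irf1 and 1 for each of the others. The cells were macrophages grown from bone marrow precursors (bone marrow-derived macrophages) taken from C57BL/6J males. One group received siRNA whose target is the Y RNA (RNY) terminal loop, and the other a control siRNA. The series describes 2 conditions on 4 mice, which gives 4 samples in each group and 8 arrays in all, and the replicate numbers are used below as mouse 1 to mouse 4. Y RNAs are short noncoding transcripts known as partners of the Ro60 protein, and the series looks for targets of the fragments called s-RNYs. The labels give no siRNA dose, and the level of the Y RNAs was not analysed here.

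The members share an amino-terminal DNA-binding domain that recognises GAAA repeats, the core of the interferon-stimulated response element. Irf3, Irf5 and Irf7 are held inactive in the cytoplasm until kinases downstream of pattern recognition receptors phosphorylate them, and Irf3 and Irf7 then switch on type I interferon genes. Irf9 is the DNA-binding part of the factor ISGF3, which also holds Stat2, below the interferon receptors. Irf1 and Irf2 bind overlapping sites, Irf1 mainly as an activator and Irf2 often as its antagonist. Irf4 and Irf8 bind poorly alone and act with partners such as PU.1 in myeloid and lymphoid cells. Most of this control acts on the protein, which an array does not see, while transcription of Irf1, Irf7, Irf8 and Irf9 is itself raised by interferons.

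The sequences below show what was read and what lies upstream. The Irf7 probe is printed because Irf7 has the largest mean difference in the family and because its 60 bases are spread over 351 bases of the genome (chr7:148450664-148451014, mm9, listed from high to low coordinate), so they are not contiguous there. It is given 5′ to 3′ as deposited.
Irf7 probe: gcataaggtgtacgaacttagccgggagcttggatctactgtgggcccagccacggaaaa
The promoters of Irf1 and Irf8 are printed because both genes were highest in mouse 1 and lowest in mouse 3. They are RefSeq windows of GRCm38.p6, from 250 bases before to 50 bases after the gene start, on the plus strand (Irf1 at chr11:53769764-53770063 and Irf8 at chr8:120736108-120736407). Capitals mark matches to TTCNNNGAA, the GAS motif bound by activated STAT dimers, which reads the same on both strands.
Irf1 promoter: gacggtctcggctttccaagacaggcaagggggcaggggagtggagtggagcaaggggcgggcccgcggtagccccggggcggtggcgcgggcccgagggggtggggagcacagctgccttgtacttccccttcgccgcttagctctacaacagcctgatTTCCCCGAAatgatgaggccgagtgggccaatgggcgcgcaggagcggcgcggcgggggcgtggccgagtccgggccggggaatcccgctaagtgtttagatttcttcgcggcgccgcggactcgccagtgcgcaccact
Irf8 promoter: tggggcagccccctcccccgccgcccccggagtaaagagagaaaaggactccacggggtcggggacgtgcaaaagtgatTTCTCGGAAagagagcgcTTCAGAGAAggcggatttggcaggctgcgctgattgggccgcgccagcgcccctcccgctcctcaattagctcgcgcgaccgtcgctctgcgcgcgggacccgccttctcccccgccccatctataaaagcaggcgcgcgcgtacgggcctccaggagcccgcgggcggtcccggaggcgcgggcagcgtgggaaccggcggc
The match in the Irf1 window starts at base -90 from the gene start, and those in the Irf8 window start at -171 and -153. All 8 genes matched the promoter table, with 11 windows in all. GAS matches were found in 3 of these 11 windows, the 2 printed and that of Irf2, against 8.30% of all 32851 promoter windows. Irf1 and Irf8 each have a second window, at chr11:53770223-53770522 and chr8:120738389-120738688, and each of these held 0 GAS matches. On either strand, the response element core, GAAA repeated after any 2 bases, was found in 1 member window and in 3.44% of all windows. The composite site of PU.1 with Irf4 or Irf8, GGAA then any 2 bases then GAAA, was found in 1 member window and in 2.72% of all. Both of these lie in the Irf2 window, at -241 and -247, where they overlap. A match describes letters in the window and no binding was measured.

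All 8 genes had a probe well above background on all 8 arrays, so none entered the test through 1 group. The second Irf1 probe, listed under another RefSeq transcript of the gene (chromosome 11, 53591817 to 53591876, mm9), was not well above background on any array and gives no fold. As a check of the cells, all 10 macrophage markers listed (among them Adgre1, Csf1r and Cd68) passed the filter on dim probes. Of the dendritic cell markers 3 of 10 passed, of the B and plasma cell markers 3 of 9, and of the neutrophil markers 5 of 10. Of the fibroblast markers 5 of 7 passed, and of the osteoclast markers 7 of 8. Xcr1, Clec9a, Ms4a1 and Ly6g were not well above background on any array. Siglech, of the dendritic cell list, was bright, at 6.48 log2 units above the array's 75th percentile with the Y RNA siRNA and 6.56 with the control. Elane, of the neutrophil list, was at 1.97 and 1.93. The arrays correlated with one another at 0.989 to 0.997 over genes. The 2 arrays of mouse 1 stood apart from the other 6 on the first principal component, which held 43.0% of the variance. They also had the lowest 75th percentile of log2 signal, 9.01 with the Y RNA siRNA and 9.03 with the control, against 9.18 to 9.33 on the other 6 arrays. Slide columns 1 and 3 held the Y RNA siRNA and columns 2 and 4 the control, and group and column cannot be told apart. RNA integrity scored 10 in 7 samples and 8 in the control of mouse 4. In such bulk cultures, fewer cells of a type and less RNA per cell cannot be told apart.

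With the Y RNA siRNA, the mean log2 signal of the members differed from the control by -0.11 to 0.16, in mixed directions. The means of Irf7, Irf9, Irf1, Irf3 and Irf2 were higher and those of Irf5, Irf4 and Irf8 were lower, so 5 of 8 were higher, against 53% of all genes. None of the 8 genes passed the test across all genes. The median log2 fold change of the members was 0.03, against 0.01 over all 19286 genes tested. Within mice 1 to 4 the median difference of the members was -0.01, 0.06, 0.09 and -0.08, against 0.04, 0.00034, 0.01 and -0.02 over all genes. In mouse 4 every member but Irf7 was lower with the Y RNA siRNA. The control RNA of that mouse had the integrity score of 8, whose part was not tested. In limma without a block, 0 of 19286 genes passed an adjusted p of 0.05 (0%), and 646 had an unadjusted p under 0.05 (3.35%), none of them a member. The adjusted p was 0.9998 for each of the 8 members. The p-values measure the spread between these samples of 4 mice. Each level is given in log2 units above or below the 75th percentile of its own array, and levels are compared within a gene, since 2 probes differ in how well they bind.

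Irf3, the constitutive factor that first switches on the interferon-beta gene, was the steadiest member. It read 5.27, 5.34, 5.29 and 5.31 in mice 1 to 4 with the Y RNA siRNA, against 5.22, 5.29, 5.21 and 5.36 with the control siRNA. The groups overlapped, and all 8 arrays lay within 0.16. The means were 5.30 ± 0.03 and 5.27 ± 0.07 (SD, n = 4 each), with a log2 fold change of 0.03 ± 0.05 (SE), and the 95% interval of the fold ran from 0.939 to 1.11. With 1 array left out the log2 fold change lay between 0.01 (mouse 3 control out) and 0.06 (mouse 4 control out). Its probe lies on chromosome 7 (52257700 to 52257759, mm9).

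Irf7, which amplifies the type I interferon response and is itself induced by interferon, had the largest mean difference and the widest spread. It read 1.46, 1.77, 1.97 and 2.10 in mice 1 to 4 with the Y RNA siRNA, against 1.21, 1.78, 1.68 and 1.98 with the control siRNA. The signal was higher with the Y RNA siRNA in mice 1, 3 and 4 and nearly level in mouse 2, and mouse 1 was the lowest of its group under both siRNAs. The means were 1.82 ± 0.28 and 1.66 ± 0.33 (SD, n = 4 each), a log2 fold change of 0.16 ± 0.19 (SE). The difference is smaller than its standard error without a block, and 15.8% of all genes had a larger one. In the fit that takes mouse as a fixed block the standard error was 0.06 and the adjusted p 0.565, where most of the spread of Irf7 was shared by the arrays of a mouse. The log2 fold change was 0.28 with the Y RNA siRNA array of mouse 1 left out and 0.01 with its control array left out, and each of these fits keeps mouse 1 in 1 group only. Without both arrays of mouse 1 it was 0.13.

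Irf5, a driver of inflammatory cytokine genes below Toll-like receptors, was the only member whose difference had the same sign in all mice, and it did not pass the test. It read 3.82, 3.98, 3.89 and 3.91 in mice 1 to 4 with the Y RNA siRNA, against 3.87, 4.06, 3.99 and 4.12 with the control siRNA. The signal was lower with the Y RNA siRNA in 4 of 4 mice, by 0.04 to 0.21. The largest of these differences was in mouse 4, whose control RNA had the integrity score of 8, and the part of that score was not tested. The groups overlapped at mouse 1, which was lowest under both siRNAs. The means were 3.90 ± 0.06 and 4.01 ± 0.11 (SD, n = 4 each), a log2 fold change of -0.11 ± 0.07 (SE), with an adjusted p of 0.562 with the fixed block and 0.526 with the mouse as a random block. A lower signal in 4 of 4 mice was seen for 8.5% of all genes, and the same direction in 4 of 4 mice for 19% of all genes, against 1 of the 8 members. Its probe lies on chromosome 6 (29486901 to 29486960, mm9).

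Irf9, the DNA-binding subunit of ISGF3, read 4.04, 4.12, 4.11 and 4.17 in mice 1 to 4 with the Y RNA siRNA, against 3.91, 4.06, 3.96 and 4.24 with the control siRNA. It was higher with the Y RNA siRNA in mice 1, 2 and 3 and lower in mouse 4, whose control RNA had the integrity score of 8; the part of that score was not tested. The means were 4.11 ± 0.05 and 4.04 ± 0.15 (SD, n = 4 each), a log2 fold change of 0.07 ± 0.08 (SE), which became 0.13 without the mouse 4 control array, 0.02 without the mouse 1 control array and 0.04 without the mouse 3 control array. Its probe lies on chromosome 14 (56228806 to 56228865, mm9).

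Irf1, the interferon-gamma inducible activator of MHC class I genes, had close means under both siRNAs and a wide spread between mice. It read 4.73, 4.47, 4.20 and 4.54 in mice 1 to 4 with the Y RNA siRNA, against 4.73, 4.28, 4.13 and 4.62 with the control siRNA. Mouse 1 was highest and mouse 3 lowest in both groups. The means were 4.49 ± 0.22 and 4.44 ± 0.28 (SD, n = 4 each). The log2 fold change was 0.04 ± 0.16 (SE), with a fold interval of 0.799 to 1.33, and its sign turned in 4 of the 24 other settings, each of which left out arrays. The probe lies on chromosome 11 (53590746 to 53590805, mm9).

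Irf2, which competes with Irf1 for the same sites, read 1.51, 1.56, 1.53 and 1.61 in mice 1 to 4 with the Y RNA siRNA, against 1.53, 1.46, 1.44 and 1.67 with the control siRNA. The Y RNA siRNA arrays lay inside the range of the controls. The means were 1.55 ± 0.04 and 1.52 ± 0.10 (SD, n = 4 each), a log2 fold change of 0.03 ± 0.06 (SE). The signal was higher in 2 of 4 mice, and the interval of the fold ran from 0.921 to 1.13. Its log2 fold change was 0.00026 without the mouse 3 control array and 0.08 without the mouse 4 control array. Its probe lies on chromosome 8 (47932486 to 47932545, mm9).

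Irf8, the factor that directs precursors toward monocytes and dendritic cells, read 5.94, 5.76, 5.43 and 5.65 in mice 1 to 4 with the Y RNA siRNA, against 6.00, 5.69, 5.47 and 5.84 with the control siRNA. As with Irf1, mouse 1 was highest and mouse 3 lowest in both groups, and the groups overlapped over most of their range. The means were 5.69 ± 0.21 and 5.75 ± 0.22 (SD, n = 4 each). The log2 fold change was -0.05 ± 0.14 (SE), lower in 3 of 4 mice with a fold interval of 0.769 to 1.21, and it turned to 0.03 when the mouse 3 array of the Y RNA siRNA or the mouse 1 control array was left out. Its probe lies on chromosome 8 (123280324 to 123280383, mm9).

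Irf4, the member tied to plasma cells, some dendritic cells and alternative macrophage activation, gave 164 to 249 intensity units, well above background on all 8 arrays. Relative to the 75th percentile it read -1.65, -1.63, -1.63 and -1.47 in mice 1 to 4 with the Y RNA siRNA, against -1.26, -1.69, -1.82 and -1.23 with the control siRNA. The controls fell into a higher pair, mice 1 and 4, and a lower pair, mice 2 and 3, while the Y RNA siRNA arrays of mice 1, 2 and 3 lay within 0.02 of each other. The means were -1.60 ± 0.08 and -1.50 ± 0.30 (SD, n = 4 each). The log2 fold change was -0.10 ± 0.14 (SE), lower in 2 of 4 mice and higher in the other two, with a fold interval of 0.745 to 1.17. It was -0.21 without the mouse 3 control array, -0.01 without the mouse 4 control array and -0.0011 without both arrays of mouse 1. Its probe lies on chromosome 13 (30858532 to 30858591, mm9).

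**Figure D1:**
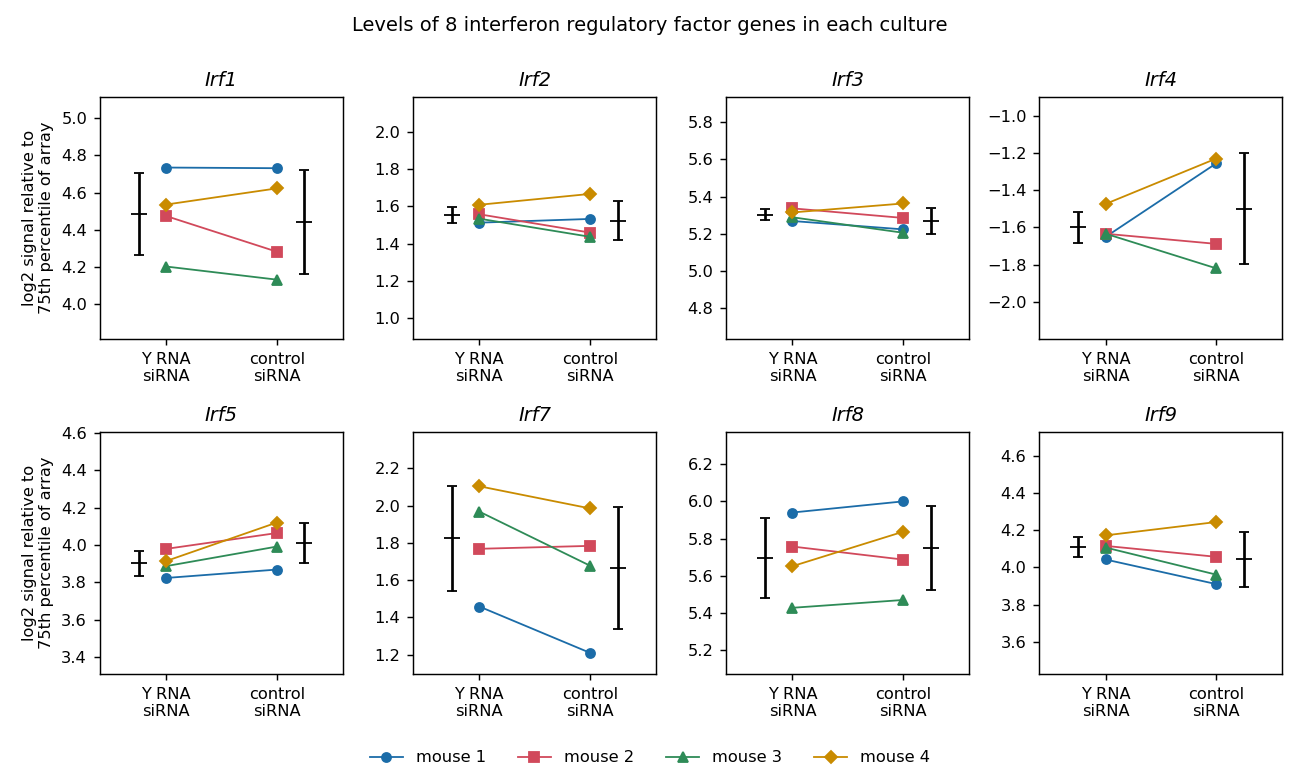
Log2 signal of each gene minus the array's 75th percentile (vertical axis, the same span in every panel) under the Y RNA siRNA (left) and the control siRNA (right), with a line for each of the 4 mice. Black bars are mean ± SD, n = 4. The groups overlap for all 8 genes, and mouse 1 is lowest for Irf7 (1.46 and 1.21) and highest for Irf8 (5.94 and 6.00) under both siRNAs.

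No member had groups that did not overlap. All Y RNA siRNA arrays lay above all controls for 1.36% of all genes and below them for 1.1%, in all 2.47%. In the fit without a block, the 95% interval of the fold lay within 1.5-fold in either direction for 7 of the 8 members, against 84.7% of all genes. The exception was Irf7, with an interval of 0.823 to 1.52. For Irf7 it was 0.995 to 1.255 with mouse as a fixed block and 0.931 to 1.341 as a random block. Both of these lay within 1.5-fold. A p that misses the threshold does not show that the levels were alike. These intervals give the sizes that remain possible under each fit. The fixed block gave 0 of 19286 genes that passed (0%), with 1740 at an unadjusted p under 0.05 (9.02%). The members with the smallest unadjusted p in that fit were Irf5 (0.0553) and Irf7 (0.0567). The random block gave 11 genes that passed (0.057%), none of them a member; Irf5 was the only member with an unadjusted p under 0.05 there (0.0437), as 9.24% of all genes had.

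**Figure D2:**
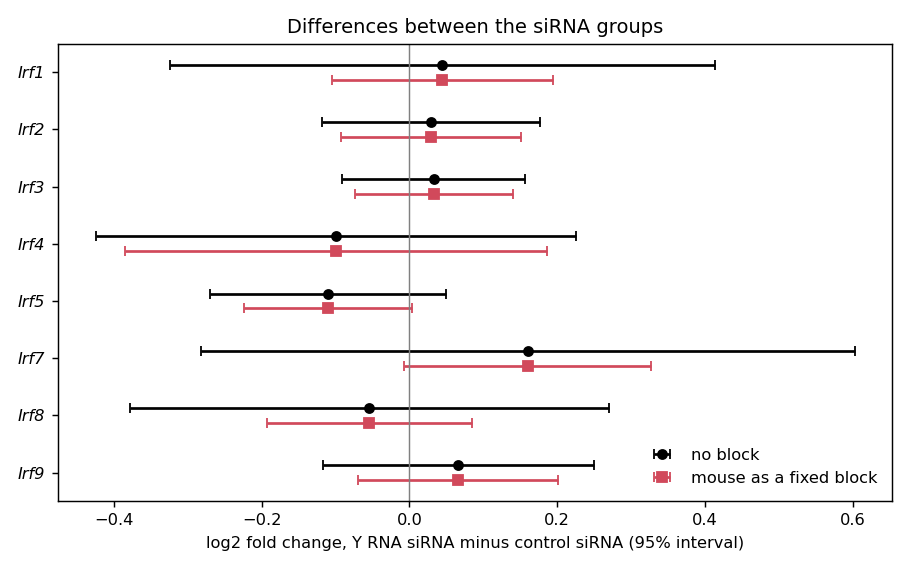
Log2 fold change of each gene, Y RNA siRNA minus control siRNA (horizontal axis), with its 95% interval from limma without a block (black circles) and with mouse as a fixed block (red squares). Every interval includes 0 in both fits, and that of Irf7 without a block is the widest, from -0.28 to 0.60.

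For each of the 8 genes the mouse held a larger share of the variation than the siRNA did. There were more mice than siRNAs, so noise alone gives the mouse the larger share on average. That order therefore shows no effect of the mouse, and each share is set beside the median of all genes. The mouse accounted for 93.6% of the sum of squares over the 8 arrays for Irf1, 92.5% for Irf8 and 86.9% for Irf7, against a median of 66.3% over all genes. The other members lay near or below that median, with 71.2% for Irf9, 70.7% for Irf2, 65.1% for Irf3, 59.3% for Irf4 and 56.6% for Irf5. The siRNA accounted for 1.03% for Irf1, 1.99% for Irf8 and 8.42% for Irf7, against a median of 5.75%. Irf5 had the highest siRNA share of the family, 33.6%. The mouse means of Irf7 spanned 0.71 on the log2 scale and those of Irf3 0.09.

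The members did not share 1 order of the mice. Irf2, Irf3, Irf4, Irf7 and Irf9 were highest in mouse 4, Irf1 and Irf8 in mouse 1 and Irf5 in mouse 2. Mouse 1 was highest for 2 of the 8 members and lowest for 4, against 7297 and 6104 of all 19286 genes. Irf1 and Irf8 were highest in mouse 1, by 0.27 and 0.25 above the mean of the 4 mice, and lowest in mouse 3, by -0.30 and -0.27. Irf7 and Irf9 ran the other way, lowest in mouse 1, by -0.41 and -0.10, and highest in mouse 4, by 0.30 and 0.13. Irf4 was highest in mouse 4 (0.20) and lowest in mouse 3 (-0.18), and Irf5 was lowest in mouse 1 (-0.11).

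A test of the mouse term was added after these values were seen, as limma's F test with the siRNA kept in the model. It called 895 of 19286 genes (4.64%) and 0 of the 8 members. The adjusted p was 0.0561 for Irf7, 0.0653 for Irf1, 0.0742 for Irf8 and 0.245 or more for the other members. Without mouse 2 it called Irf7 (0.0410) and Irf1 (0.0491), with 5.95% of all genes called. It called 0 members without mouse 1 (0.0104% of all genes called), without mouse 3 (0.913%) and without mouse 4 (1.85%). The 2 arrays of a mouse share the animal and any step handled per mouse, and mice 1 and 2 shared slide row 1 while mice 3 and 4 shared row 2. They also lay side by side on the slide, in columns 3 and 4 for mice 1 and 3 and columns 1 and 2 for mice 2 and 4. Mouse and slide position therefore cannot be told apart.

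**Figure D3:**
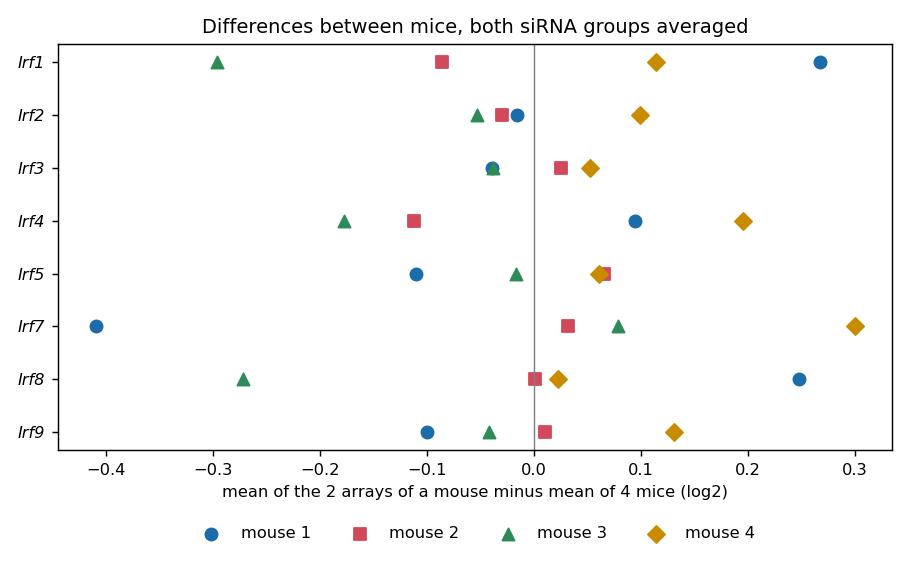
Mean of both arrays of a mouse minus the mean of the 4 mice on the log2 scale (horizontal axis) for each gene, 1 symbol per mouse. Mouse 1 lies at 0.27 for Irf1 and 0.25 for Irf8 and at -0.41 for Irf7, and the 4 mice lie closest together for Irf3.

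Other readings moved with mouse 1. The summed linear signal of 8 osteoclast markers, relative to the 75th percentile, was 18.4 and 20.8 in mouse 1 with the Y RNA siRNA and the control, against 65.6 to 97.1 and 75.5 to 105.5 in mice 2 to 4. The sum of 7 fibroblast markers was 1.13 and 0.838 in mouse 1, against 1.88 to 3.02 with the Y RNA siRNA and 2.01 to 2.88 with the control in the other mice. The sum of 10 macrophage markers was highest in mouse 1, at 1797 and 1778, against 1520 to 1619 and 1531 to 1711. Calcr, which defines mature osteoclasts, was not well above background on any array. The osteoclast sum also moved with the siRNA: the groups overlapped, but within each mouse it was lower with the Y RNA siRNA, at 18.4, 65.6, 97.1 and 75.2 in mice 1 to 4, against 20.8, 75.5, 105.5 and 88.9 with the control. Of the 7 osteoclast markers tested, 6 were lower, 4 of them in 4 of 4 mice, with a median log2 fold change of -0.21, and 0 passed in any of the 3 fits. Ctsk, the osteoclast protease cathepsin K, chosen here after its values were seen, was lower by 0.35 to 0.44 in each mouse. Its log2 fold change was -0.39 ± 0.85 (SE), and its adjusted p in limma was 0.9998 when mouse was left out of the model. That p was 0.214 when mouse was a fixed term and 0.844 when it was a random one. Without the mouse 1 array of the Y RNA siRNA, 4 of the 7 were higher, with a median of 0.08. That fit keeps mouse 1 in the control group only. Without both arrays of mouse 1, 1 of the 7 was higher, with a median of -0.19. The part of these markers in the differences of the Irf genes, between mice or between the siRNAs, was not tested.

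The genes around the factors were described by 9 lists, some of which share genes, and no member of any list passed the test. An unadjusted p under 0.05 was seen for 4 of the 14 MHC class I targets, 2 of the 11 Irf4 targets, and 1 or 0 genes of every other list, against 3.35% of all genes. Of the adaptors, sensors and kinases upstream, 21 of 21 were tested, with 11 higher, a median log2 fold change of 0.01 and 0 called. Azi2, an adaptor of the kinase Tbk1, was at 0.14 ± 0.06 and Sting1, the adaptor of cytosolic DNA sensing, at 0.12 ± 0.07, each higher in 4 of 4 mice. The RNA sensor Ifih1 was at 0.14 ± 0.08, higher in 4 of 4 mice, and Tlr3 at -0.22 ± 0.15. Tbk1, which phosphorylates Irf3, was at -0.04 ± 0.07 (all SE).

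Of 14 partners and cofactors 13 were tested, with 7 higher and a median of 0.01. Batf and Batf3, AP-1 factors that pair with Irf4 and Irf8, were at 0.19 ± 0.18 and 0.17 ± 0.16 (SE), each higher in 4 of 4 mice. Stat2, the partner of Irf9, was at 0.12 ± 0.14 (SE), higher in 4 of 4 mice. Spi1, which encodes PU.1, was at -0.10 ± 0.10 (SE), lower in 4 of 4 mice, and the coactivator gene Ep300 was at 0.14 ± 0.16. A higher signal in 4 of 4 mice was seen for 10.5% of all genes, and for 3 of these 13.

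Of the repressors and turnover factors 15 of 16 were tested, with 7 higher and a median of -0.01. Tnfaip3, the A20 deubiquitinase, was at -0.20 ± 0.08 and Irf2bp1, a corepressor named for binding Irf2, at -0.13 ± 0.07, each lower in 4 of 4 mice. Socs3, a feedback inhibitor of JAK kinases, was at 0.34 ± 0.18, higher in 4 of 4 mice, and the phosphatase gene Ptpn6 was at -0.10 ± 0.05 (all SE). The type I interferon list, which also holds the interferon-gamma receptor chains, had 9 of 11 genes tested, with 3 higher. Ifnb1 and Ifna4 were not well above background on any array, and Ifna1, a dim probe, was at -0.24 ± 0.16, or -0.07 with another background correction. Jak2 was at 0.10 ± 0.05 and the receptor chains Ifnar2 and Ifnar1 were at 0.09 ± 0.06 and -0.08 ± 0.07 (all SE).

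The target lists differed in how many of their genes were higher, with 53% of all genes higher as the background, or 66.1% with median centring. Of 39 interferon-stimulated targets tested, 35 were higher, 10 of them in 4 of 4 mice, with a median of 0.09 and 0 called, and 36 were higher with median centring. The within-mouse medians were 0.01, 0.09, 0.24 and -0.0045 in mice 1 to 4, and leaving out arrays gave 25 to 36 higher. The median was 0.04 when the mouse 1 control array, the mouse 4 array of the Y RNA siRNA or all of mouse 3 was left out, with 25, 28 and 29 higher. It was 0.05 without the mouse 3 array of the Y RNA siRNA, 0.21 without its mouse 1 array and 0.18 without the mouse 4 control array. Without both arrays of mouse 1 it was 0.10, with 36 higher. Ccl5, a chemokine gene known to be activated by Irf3 and Irf7, was at 0.87 ± 0.22 (SE) with an adjusted p of 0.972 in limma without a block. It was higher in 4 of 4 mice, by 0.70 to 1.14, and its adjusted p in limma was 0.214 with mouse as a fixed term and 0.0887 as a random one. Bst2, tetherin, was at 0.17 ± 0.11, higher in 4 of 4 mice. Between mice, 31 of these 39 genes were lowest in mouse 1, as Irf7 and Irf9 were, against 31.6% of all genes. Their median lay at -0.30 in mouse 1 and 0.18 in mouse 4 relative to the mean of the 4 mice. Stat2 lay at -0.30 and 0.19 in those mice. The F test of the mouse term called 2 of these 39 genes (5.13%), against 4.64% of all genes.

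All 14 MHC class I targets of Irf1 were higher in the mean, with a median of 0.07 and 0 called. Programmed death ligand Cd274 was at 0.26 ± 0.07, the peptide transporter Tap1 at 0.25 ± 0.07, the class I activator Nlrc5 at 0.16 ± 0.06 and the immunoproteasome subunit Psmb9 at 0.13 ± 0.05 (SE), each higher in 4 of 4 mice. In all, 7 of the 14 were higher in 4 of 4 mice. With quantile normalization 11 were higher, and leaving out arrays gave 10 (the mouse 3 control array out, with a median of 0.04) to 14. Their median lay close to the mean of the 4 mice in mouse 1 (0.01), while Irf1 itself lay at 0.27 there. Between the siRNAs, Irf1 differed by 0.04 and the median of these targets by 0.07.

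Of the 9 inflammatory targets of Irf5, 4 were too dim to test. Il6, Il12a and Il12b were not well above background on any array, and of the 5 genes tested 4 were lower, with Ccl3 at -0.08 ± 0.06, Ccl4 at -0.07 ± 0.11, Tnf at -0.06 ± 0.22 and Nos2 at -0.02 ± 0.09 (SE). Of 11 alternative activation targets of Irf4 tested, 4 were higher, with a median of -0.05. The median was 0.02 without the mouse 4 control array, with 7 of 11 higher, and -0.16 without the mouse 3 array of the Y RNA siRNA. In 4 of 4 mice, 2 of the 11 were higher and 2 lower. Klf4, also in the Irf8 list, was at -0.16 ± 0.06 and Il10 at -0.16 ± 0.10, each lower in 4 of 4 mice. The mannose receptor Mrc1 was at 0.07 ± 0.07, higher in 4 of 4 mice but nearly level in mouse 4, at 0.00031. Chil3, a chitinase-like gene named after its values were seen, was at 0.25 ± 1.98 (SE), higher in 4 of 4 mice. Pdcd1lg2 was at -0.38 ± 0.15 on its brighter probe and at -0.13 over its 2 kept probes. Of 15 myeloid targets of Irf8 tested, 6 were higher, or 8 with median centring, with a median of -0.03 that lay between -0.05 and -0.0037 when arrays were left out. The lysosomal protease gene Ctss was at -0.11 ± 0.05, Cst3, which encodes the protease inhibitor cystatin C, at -0.05 ± 0.06 and the macrophage marker Cd68 at -0.04 ± 0.05 (SE).

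**Figure D4:**
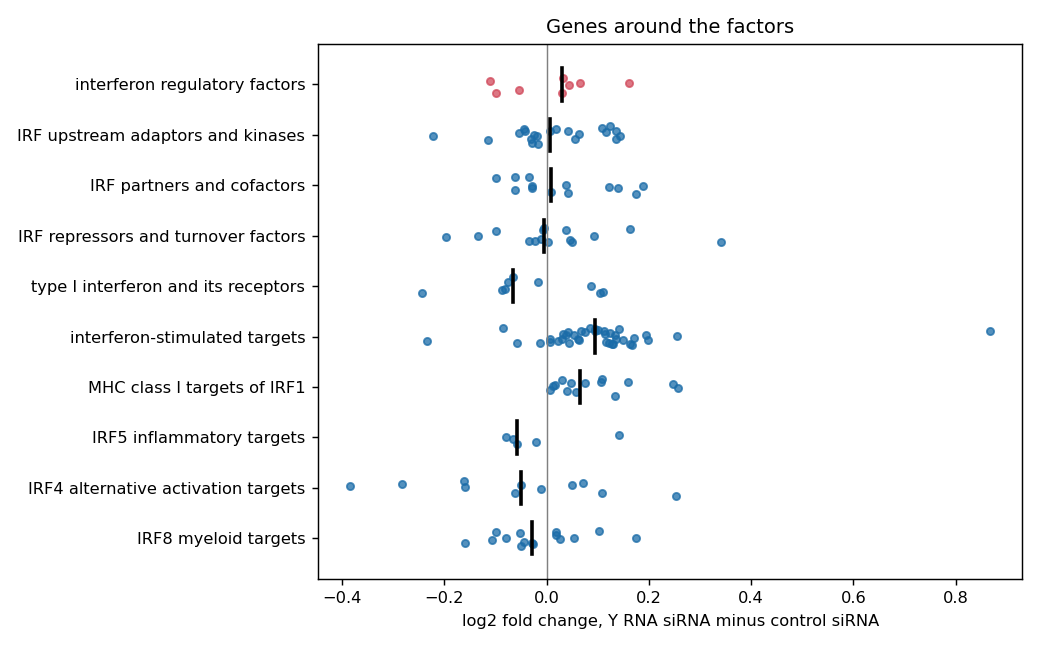
Log2 fold change of each tested gene, Y RNA siRNA minus control siRNA (horizontal axis), for the 8 interferon regulatory factors (red) and 9 lists of genes around them (blue), with the median of each as a black bar. Most of the 39 interferon-stimulated targets and all 14 MHC class I targets lie right of 0, with medians of 0.09 and 0.07, and Ccl5 lies farthest right at 0.87.

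For each member, the genes most like it over the 8 arrays were ranked by Pearson's r among 12284 genes with a symbol. The 8 arrays come from 4 mice and share the differences between mice, so r is a description only. Irf1 was closest to the nuclear receptor gene Ppard (0.996) and the phosphodiesterase gene Pde4b (0.993). Irf8 was closest to Cyb5a (0.993) and Grin3b (0.992), and among those of Irf5 was Mien1 (0.965). Irf7 was closest to Fbxw17 (0.986) and Tm9sf1 (0.982), and Irf9 to Rbm7 (0.989) and Slc33a1 (0.986). Irf3 was closest to Asah2 (0.987) and Idnk (0.976), Irf2 to Glt8d1 (0.983) and Pik3r4 (0.974), and Irf4 to Ksr1 (0.960) and Cnot2 (0.950). None of these genes passed the test between the siRNAs.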

How the data were processed

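The 8 1-colour Agilent arrays were analysed, 1 per sample. Per the file headers, the deposited intensity values come from Agilent Feature Extraction 10.7.3.1 (protocol GE1_107_Sep09, design 028005, positions on mm9), with background subtracted and spatial trends removed but no normalization between arrays. Slide and scan session were shared by all 8. The value table that the authors deposited is on a log2 scale with column medians of 6.26 to 6.28. Its correlation with the log2 raw median signal was at least 0.9998, and its method and centring are not stated. It was used as an alternative.

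Control spots and outlier-flagged spots were left out, and log2 processed signal minus the array's 75th percentile was averaged per probe. Between 48.7% and 50.7% of spots were well above background and 0 were saturated. The number of arrays limits the precision. Probes well above background on at least 4 arrays were kept (26820), and the brightest represents a gene, giving 19286 genes. In all, 26762 probes matched the GRCm38.p6 RefSeq table by accession, which was used for names. The siRNA comparison used limma (version 3.58.1, R 4.3.3; two-sided, Benjamini-Hochberg over all genes, threshold 0.05), after a test on simulated data. The arrays of mice 1 to 4 correlated at 0.618, 0.155, 0.580 and 0.285 after the group means were subtracted. Each Y RNA siRNA array was closest to the control of its own number. The control of replicate 2 was closest to the Y RNA siRNA array of replicate 3. Arrays of the same number also lay side by side on the slide, so number and slide position cannot be told apart. The labels name no animals, and the numbers were taken to pair the samples because the design names 4 mice. The main fit, which gives the standard errors and intervals, has no block; mouse as a fixed or random block is an alternative, printed where named. The members, lists and tests were chosen with earlier results of these data known. All members are named, with up to 4 genes of smallest p per list, always Stat2, Tbk1 and Ifnb1, and the 2 genes most like each member; a few genes that this rule names are not reported here. Alternatives were background correction, normalization, the filter, the choice of probe, the deposited table, mouse and slide row as blocks, and arrays or mice left out.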

Additional observations from a re-analysis of the deposited data

Results flagged for a closer look

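Among the 8 genes in both groups, which makes 16 groups of 4 arrays, 1 array lay far from the other 3. Irf4 read -1.474 in replicate 4 of the Y RNA siRNA, while the other 3 arrays of that group lay between -1.65 and -1.63. The gap was 0.901 of the range of the group, above Dixon's 95% critical value for 4 samples. Chance alone marks about 1 group in 20. Irf4 was also highest in mouse 4 among the controls, at -1.23.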

How the results depend on the processing

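Under the 24 alternatives, of which keeping the outlier-flagged spots was chosen after seeing the data, 0 of the 8 interferon regulatory factor genes and 0 members of the 9 pathway lists passed the test. The number of genes called in all was 0, except for 11 with the random replicate block. Neither replicate block changed a call on a member, and the fixed replicate block left 0 genes called. The median over the members ranged from -0.03 to 0.07 when arrays were left out. Irf1 ranged from -0.0586 to 0.141 and Irf8 from -0.147 to 0.0344 when arrays were left out, and these were the only members to change direction, Irf1 in 4 and Irf8 in 2 settings. The other 6 kept their sign in all 24, but some values came close to 0: Irf2 ranged from 0.00026 to 0.08, Irf3 from 0.01 to 0.06, Irf4 from -0.21 to -0.0011, Irf5 from -0.16 to -0.07, Irf7 from 0.00895 to 0.28 and Irf9 from 0.02 to 0.13. The cause was not tested. The members were well above background on all 8 arrays, except for the second Irf1 probe. The log2 fold change of Irf4 was -0.10 in the main fit, -0.07 with another background correction and -0.06 with the authors' deposited table. Median centring moved the share of all genes that were higher to 66.1%, against 53%, with 5 of 8 members higher in both.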

Other observations

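Several genes of the lists outside the family passed limma's F test of the mouse term. Itgax, an integrin of dendritic cells and macrophages, lay at -1.43 in mouse 1 and 1.02 in mouse 3 relative to the mean of the 4 mice (log2), with an adjusted p of 0.00252 in limma. The metalloproteinase gene Mmp9 lay at -1.66 and 0.75 (adjusted p = 0.00438), and Acp5, the osteoclast phosphatase TRAP, at -0.80 and 0.63 (0.00685). Of the osteoclast markers, 4 of 7 tested passed that test, against 4.64% of all genes. The calprotectin gene S100a8 lay at -0.66 and 0.58 in mice 1 and 3 (0.0248) and the collagen gene Col1a1 at -0.97 and 0.34 (0.0483). Batf, the AP-1 partner of Irf4 and Irf8, lay at -0.37 in mouse 1 and 0.24 in mouse 3 (0.0269), and Tnf at -0.33 and 0.49 (0.0464). These tests were added after the values were seen. Without mouse 1, 2 of 19286 genes passed and none of these 7 genes did, with adjusted p from 0.173 to 0.339. Itgax, Mmp9 and Acp5 passed when mouse 2, 3 or 4 was left out in turn. S100a8 did not pass without mouse 3, Batf and Tnf without mouse 3 or mouse 4, and Col1a1 with any of the 4 left out.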
